A study of Homo sapiens with 56 samples.

Results

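The genes described here are 42 members of the amino acid stress response that the transcription factor ATF4 controls, with the cytosolic aminoacyl-tRNA synthetases, taken by gene symbol from a list whose rule uses no measured value, although the list was drawn up with earlier results of these data known. They are 42 of the 21595 named genes in the series, and every one was found in the expression table. They comprise 8 transcription factors, 7 stress effectors, 7 amino acid transporters, 7 enzymes of amino acid metabolism and a group of 13 that holds 12 synthetases and the tRNA exporter exportin-t (XPOT). Poly-A RNA was sequenced from established human lines of mantle cell lymphoma, a cancer of B cells, in 56 libraries. JEKO-1 gave 15 of them, Z138 13, and MINO, in forms labelled MINO-VR and MINO-P, 13 and 15. The meaning of the suffixes is not given in the sources used here. CON (5 libraries) is taken as untreated, since untreated cells appear in the study's design. Single agents were S63845 (6 libraries), YM155 (4), IBR (11), BTZ (6) and CLF (6). Combinations were BTZ_CLF (4), IBR_CLF (8), BTZ_YM155 (2), IBR_YM155 (2), BTZ_S63845 (1) and IBR_S63845 (1). The design text speaks of a proteasome inhibitor (PI) and an inhibitor of Bruton's kinase (BTKi) without tying either to a code, so BTZ, IBR and CLF are kept as codes. S63845 blocks the survival protein MCL-1, and YM155 was developed as a suppressant of BIRC5, another survival protein. Doses and times were not given in the sources used here.

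Cells that run short of amino acids, or whose endoplasmic reticulum holds unfolded protein, phosphorylate the initiation factor eIF2. General translation then slows while the mRNA of ATF4 is translated more, so ATF4 protein can change with little change of its mRNA. ATF4 pairs with C/EBP-family partners on composite sites and switches on genes that import and make amino acids, charge tRNAs and, when stress lasts, promote cell death through DDIT3 (CHOP).

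The site that ATF4 and a C/EBP partner share has the core TGATGNAA, or TTNCATCA when it lies on the other strand. Among the 37 members with an entry in the RefSeq promoter table (GRCh38.p14, 250 bases before to 50 after the start), 11 held this core on either strand, or 29.73%, against 3.67% of 27305 promoters of the same length. In the 250 upstream bases alone, the core stood in 5 of the 37 members (13.51%) and in 3.19% of all promoters. The form with C at the open base, TGATGCAA or TTGCATCA, stood in 7 members (18.92%) and in 0.923% of all promoters. By role, 6 of the 11 synthetase and XPOT promoters held the core, against 0 of 9 promoters of other cytosolic synthetases and their scaffold subunits. The windows below show the core in capitals on each gene's own strand. They were chosen to show the synthetase cores beside those of ATF3, of the classic targets CHAC1 and ASNS, and of the transporter SLC7A1. SLC7A1 is described under BTZ.
AARS1 (chr16:70289675-70289704, minus strand): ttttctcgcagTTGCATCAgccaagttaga
CARS1 (chr11:3057407-3057436, minus strand): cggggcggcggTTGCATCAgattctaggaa
IARS1 (chr9:92293692-92293721, minus strand): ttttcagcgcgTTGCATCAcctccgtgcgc
MARS1 (chr12:57488053-57488082, plus strand): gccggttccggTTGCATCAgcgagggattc
NARS1 (chr18:57621804-57621833, minus strand): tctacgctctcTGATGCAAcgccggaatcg
TARS1 (chr5:33440956-33440985, plus strand): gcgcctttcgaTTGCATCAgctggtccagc
CHAC1 (chr15:40953251-40953280, plus strand): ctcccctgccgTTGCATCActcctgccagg
ASNS (chr7:97872458-97872487, minus strand): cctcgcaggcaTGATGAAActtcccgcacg
ATF3 (chr1:212565205-212565234, plus strand): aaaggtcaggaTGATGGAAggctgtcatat
SLC7A1 (chr13:29595663-29595692, minus strand): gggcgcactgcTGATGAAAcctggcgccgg

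The search fixed every letter of the core but the open base, so only that base and the strand could differ between windows. In the 6 synthetase windows and CHAC1 the open base was C. Of these 7, 6 read as TTGCATCA and NARS1 as its reverse complement. The first letter of the core stood 187 bases before the start in AARS1, 209 in CHAC1, 191 in ATF3 and 68 in ASNS, while in CARS1 and MARS1 the core ran across the start and in NARS1, TARS1 and SLC7A1 it lay after it. The remaining member with the core, SLC3A2, had it after the start. A match of letters is a description, and binding was not measured in these data.

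Values below are CPM recomputed over all genes other than the 15 mitochondrially encoded ones, because mitochondrial genes took from 1.907% to 80.488% of a library's deposited CPM (median 6.695%). The steps between low values put the depth of a library at 5.511 to 21.614 M reads, with a median of 16.016 M, and 3 reads are worth 0.139 to 0.544 CPM. Of the 37 groups of line and treatment, 22 held 1 library, 11 held 2 and 4 held 3. The labels do not say that replicates were separate cultures, so p-values measure the spread between these samples, which may be technical. Pairs of libraries whose names differ by a final lower-case a were averaged and counted once, 8 pairs in all. The mantle cell lymphoma markers CCND1, SOX11, MS4A1, CD79A, CD79B and PAX5 were present in every library, whereas CD5 reached at most 0.485 CPM in Z138. The markers of other cell types that were highest were COL1A1 (up to 74.8 CPM, in Z138) and PECAM1 (up to 51.0 CPM, in MINO-VR), while the T-cell gene CD3D reached 4.13 CPM. In bulk RNA, fewer cells of a kind and less RNA per cell cannot be told apart. Several members share bases with a neighbouring gene in the deposited coordinates (DDIT3 with MARS1, ATF5 with NUP62, PCK2 with NRL, and PYCR1 with MYADML2, among others), the table also lists ATF4 pseudogenes and the near-identical copy of CBS, and strand use in counting was not given in the sources used here. Values of these members are uncertain to that extent.

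Some libraries stood apart across the 42 members. As the distance of each member from its median in its own line, the third BTZ library of JEKO-1 had a median of −2.35 on the log2 scale, while the other BTZ libraries of that line had −0.16 and −0.19. Its mitochondrial share was 9.921%, against 67.556% and 67.503% in those. In MINO-P the third IBR library had a median of −0.89 against 0.01 and 0.11 in the first and second, and in MINO-VR −0.54 against 0.13 and 0.19. JEKO-1 with CLF held one library at −0.43 and one at 0.39, and untreated Z138 one at 0.24 and one at −0.42. At the high end, the YM155 library of JEKO-1 had 38 of 42 members above the line's median (0.92), and the YM155 library of MINO-VR had 3 of 42 (−0.94), the lowest of its line. In MINO-P and MINO-VR the line's median joins libraries named HK and libraries named MCL.

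**Figure D1:**
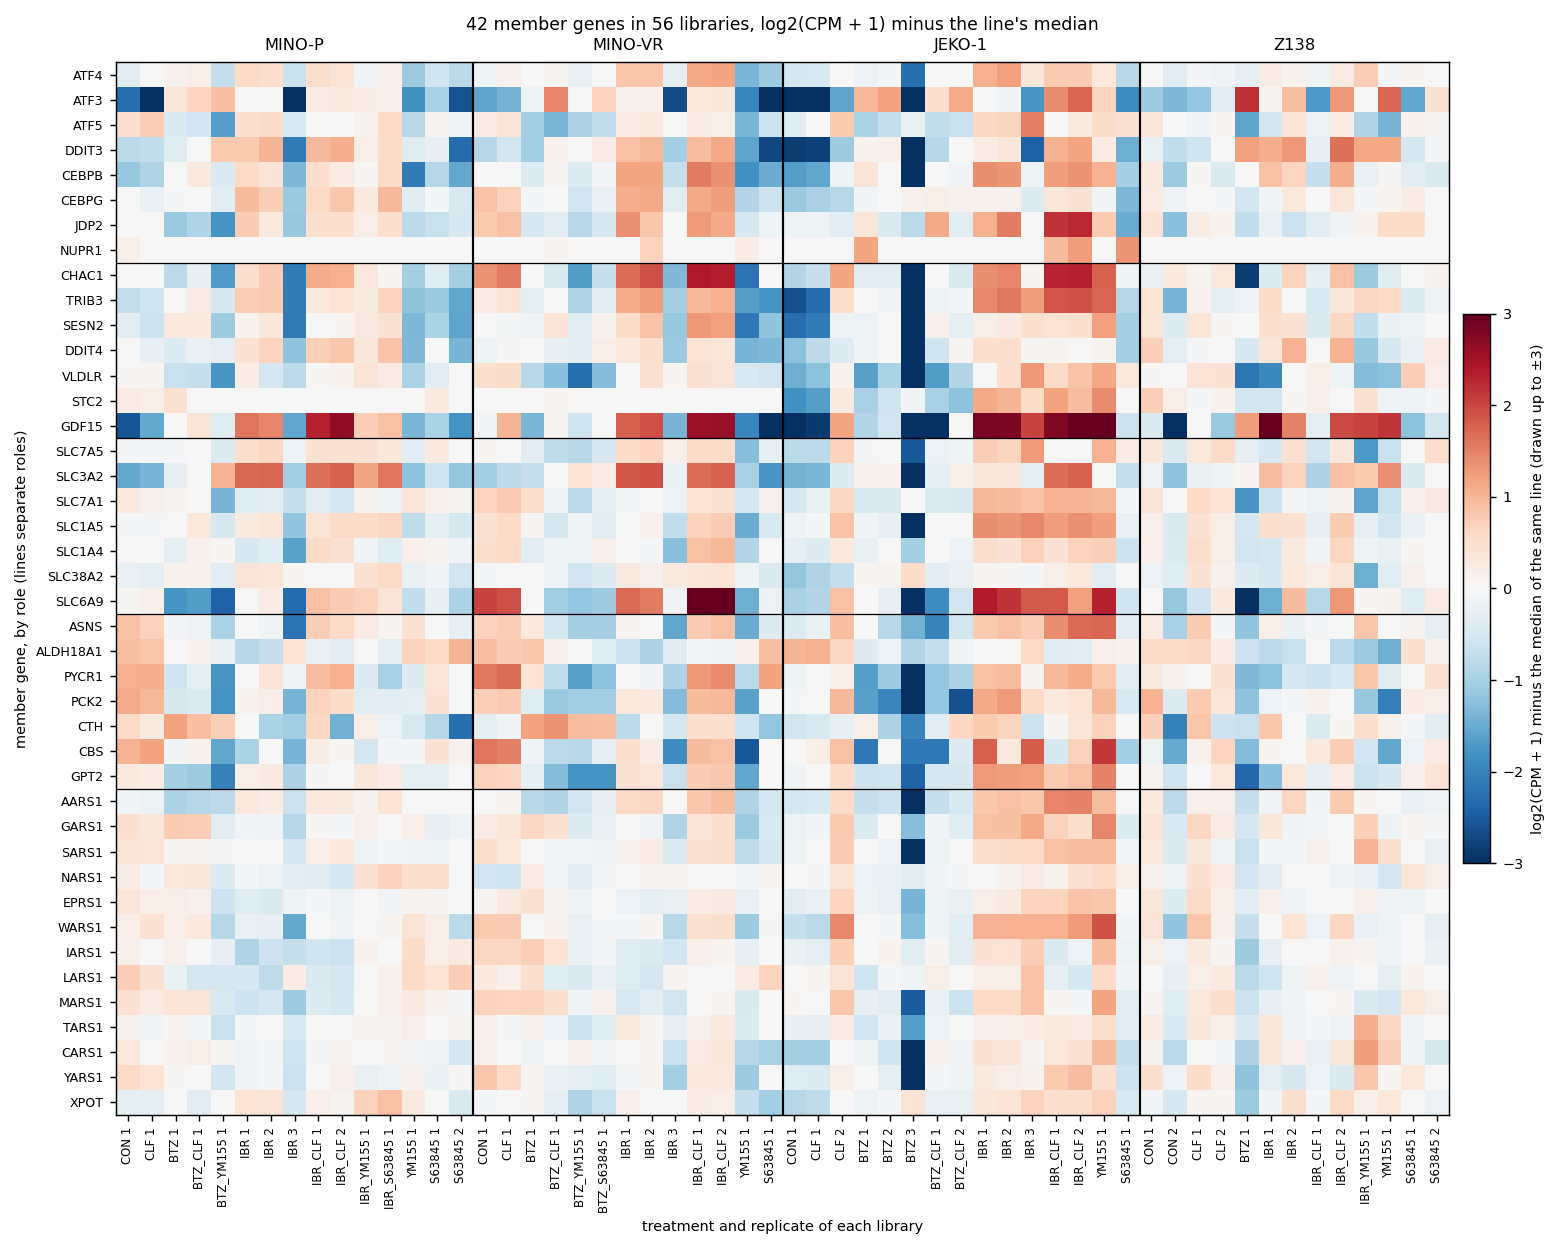
Distance of each of the 42 members (rows, grouped by role) from its median in its own line, in log2(CPM + 1) units, for all 56 libraries (columns, grouped by line). In JEKO-1 the IBR, IBR_CLF and YM155 columns are above the line's median for 33 to 40 of the 42 members, and the third BTZ column is low, with a median of −2.35.

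Across all libraries most members were well detected. NUPR1, a stress-induced chromatin protein, was the exception: it reached 1 CPM in 3 libraries, with a maximum of 1.505 CPM, and was listed at 0 in every Z138 library. STC2, a secreted glycoprotein of the stress response, reached 1 CPM in 17 libraries. It lay between 19.7 and 194 CPM in JEKO-1, at most at 1.43 CPM in Z138, 0.376 CPM in MINO-P and 0.0531 CPM in MINO-VR. GDF15, a secreted stress cytokine, ranged from listed at 0 to 241 CPM. All 42 members passed the filter of at least 1 CPM in 2 of the 48 averaged samples, and 16615 genes were tested.

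The pseudokinase TRIB3, a target of ATF4 and DDIT3, gives a view of the response in each line. In JEKO-1, TRIB3 was at 78.8 CPM untreated and at 1351, 1486 and 1190 CPM with IBR, 1666 CPM with YM155 and 1830 and 1904 CPM with IBR_CLF. In Z138, TRIB3 ranged only from 174 to 716 CPM, and of the untreated libraries one (618 CPM) lay within the range of the treated ones while the other (174 CPM) was the lowest of the line. In MINO-P and MINO-VR the highest TRIB3 values were those of the first and second IBR libraries, 947 and 977 CPM in MINO-P and 1143 and 1253 CPM in MINO-VR, while the third IBR library had 132 CPM in MINO-P and 265 CPM in MINO-VR. Untreated TRIB3 was at 345 CPM in MINO-P and 624 CPM in MINO-VR, above JEKO-1 in both. In both MINO forms the untreated libraries carry HK names and the IBR libraries MCL names. Treatment and name series cannot be told apart there.

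**Figure D2:**
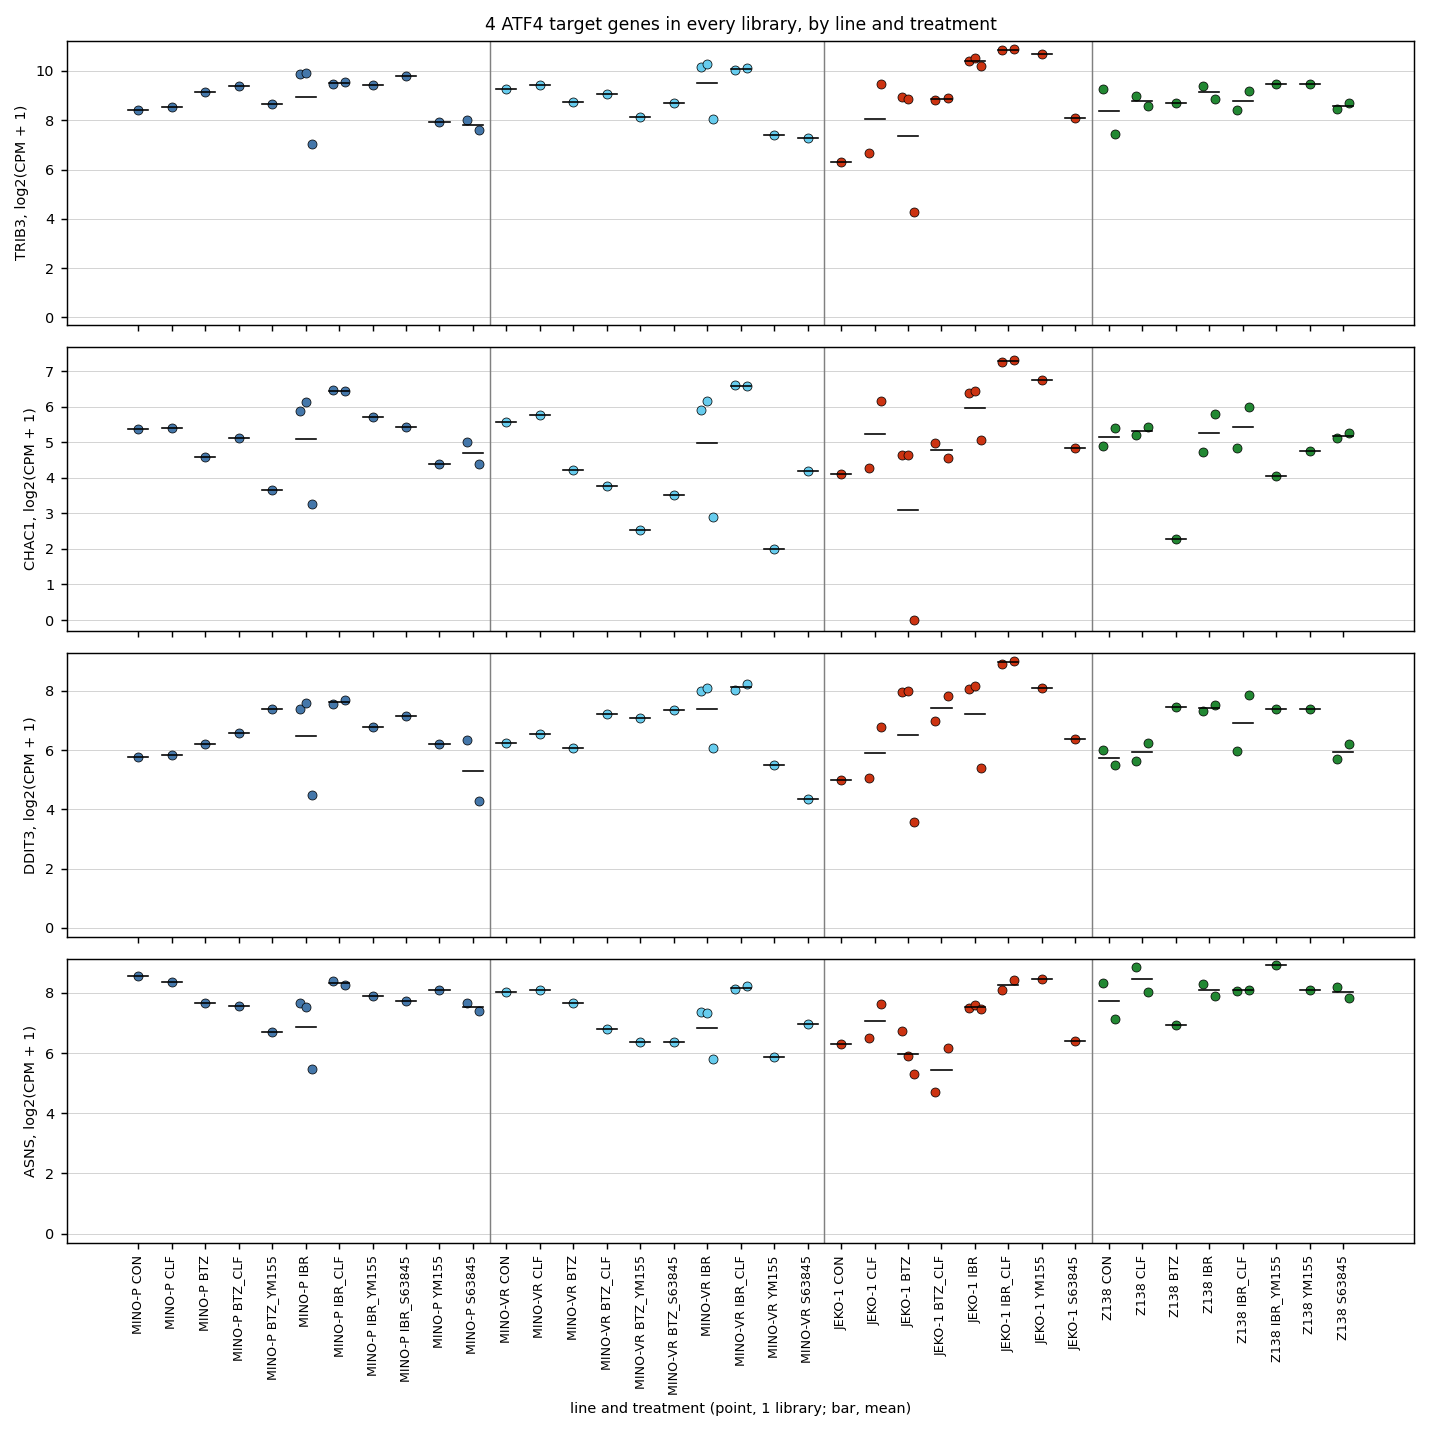
Level of TRIB3, CHAC1, DDIT3 and ASNS as log2(CPM + 1) in each library (points) by line and treatment, with bars at the mean of these values. TRIB3 in JEKO-1 goes from 78.8 CPM untreated to between 1190 and 1486 CPM with IBR, while in Z138 the untreated libraries are at 618 and 174 CPM and no treated library is above 716 CPM.

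BTZ was compared with CON as the mean of the differences within the 4 lines. Of the 42 members 4 were called, a share near the 8.73% of all genes, so they are listed singly and not as a theme. PYCR1, which closes the last step of proline synthesis, fell by 1.86 on the log2 scale (SE 0.51, limma adjusted p = 0.0361). PCK2, the mitochondrial phosphoenolpyruvate carboxykinase, fell by 1.94 (SE 0.58, limma adjusted p = 0.0498). GPT2, the mitochondrial alanine transaminase, fell by 1.45 (SE 0.40, limma adjusted p = 0.0380). ALDH18A1, which makes the proline precursor, fell by 0.95 (SE 0.28, limma adjusted p = 0.0459). These 4 were the only members of the 42 that passed, all lower, beside 8.73% of all genes tested (356 higher and 1095 lower), so the share of members called, 4 of 42, was near the background. At an unadjusted p under 0.05, 11 members passed.

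PYCR1 (chr17:81932384-81942413, hg38) was at 128 CPM untreated and 39.95 CPM with BTZ in MINO-P, and at 157 and 68.5 CPM in MINO-VR. In JEKO-1, PYCR1 was at 140 CPM untreated and at 48, 71.3 and 3.47 CPM with BTZ, and in Z138 at 297 and 266 CPM untreated and 98.4 CPM with BTZ. Every BTZ library was thus below every untreated one of its line. PCK2 (chr14:24094053-24110599) went from 162 to 53.1 CPM in MINO-P and from 184 to 85.8 CPM in MINO-VR. In JEKO-1, PCK2 was at 39.5 CPM untreated and at 12.4, 9.47 and 0 CPM with BTZ, and in Z138 at 143 and 51.1 CPM untreated and 29.0 CPM with BTZ. The same order held for PCK2. In MINO-P and MINO-VR each arm was a single library, so overlap could not occur there. Both genes are described because they were called lower in these data. The share of all genes with such an order is not given here, so it adds no support to the calls.

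GPT2 (chr16:46884362-46931290) stood at 215 against 87.2 CPM with BTZ in MINO-P, 200 against 101 CPM in MINO-VR, 151 against 107, 107 and 29.4 CPM in JEKO-1, and 225 and 140 against 40.5 CPM in Z138. ALDH18A1 (chr10:95605941-95656712) stood at 152 against 79.96 CPM in MINO-P, 161 against 152 CPM in MINO-VR, 194 against 73.3, 84.7 and 51.4 CPM in JEKO-1, and 140 and 138.5 against 60.3 CPM in Z138. For both genes every BTZ library was below every untreated one of its line, although ALDH18A1 in MINO-VR was nearly level. Most arms were single libraries and both genes were picked by their calls, so this order is a description only. The other enzymes did not pass: ASNS, asparagine synthetase, differed by −0.65 (SE 0.44, limma adjusted p = 0.404) and CBS, of the transsulfuration route, by −1.21 (SE 0.45, adjusted p = 0.112). Of the 7 enzymes 1 lay above 0, CTH at 0.37 (adjusted p = 0.752), and their median was −1.21 where the median of all genes was −0.20.

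The transcription factors were mixed with BTZ. ATF4 itself was at 739 CPM untreated and 1012 CPM with BTZ in MINO-P, 645 and 696 CPM in MINO-VR, 387 CPM and then 494, 542 and 115 CPM in JEKO-1, and 889 and 714 CPM against 739 CPM in Z138, a fitted difference of −0.05 (SE 0.40, limma adjusted p = 0.964). ATF3, a stress-induced repressor, was at 32.8 CPM untreated and 206 CPM with BTZ in MINO-P, 58.8 and 160 CPM in MINO-VR, 10.9 CPM and then 346, 399 and 9.22 CPM in JEKO-1, and 23.9 and 19.7 CPM against 237 CPM in Z138. Every BTZ library apart from the third of JEKO-1 was thus above its untreated ones for ATF3, and the fitted difference was 2.45 (SE 1.05, adjusted p = 0.166).

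DDIT3 was at 53.5 CPM untreated and 73.2 CPM with BTZ in MINO-P, 74.9 and 66.8 CPM in MINO-VR, 30.9 CPM and then 246, 256 and 10.8 CPM in JEKO-1, and 63.0 and 44.1 CPM against 175 CPM in Z138. The DDIT3 difference was 0.69 (SE 0.87, limma adjusted p = 0.699), with no single direction over the libraries. ATF5, an ATF4-related factor, went the other way, from 2002 to 1041 CPM in MINO-P, 1773 to 752 CPM in MINO-VR and 3170 and 2471 to 820 CPM in Z138, but was at 372 CPM untreated and 245, 287 and 408 CPM with BTZ in JEKO-1 (−1.03, SE 0.32, adjusted p = 0.0585). Of the 8 factors 4 were above 0, with a median of −0.01, and this median was 0.09 under size-factor scaling.

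Among the stress effectors, CHAC1, which breaks down glutathione, was at 40.5 CPM untreated and 22.9 CPM with BTZ in MINO-P, 46.3 and 17.6 CPM in MINO-VR, 16.2 CPM and then 24.0, 23.9 and 0 CPM in JEKO-1, and 28.8 and 41.5 CPM against 3.83 CPM in Z138 (−1.70, SE 0.85, limma adjusted p = 0.235). CHAC1 was thus lower with BTZ in 3 lines and on both sides of the untreated library in JEKO-1. TRIB3 was at 345 and 564 CPM in MINO-P, 624 and 428 CPM in MINO-VR, 78.8 CPM and then 496, 461 and 18.2 CPM in JEKO-1, and 618 and 174 CPM against 411 CPM in Z138 (0.19, SE 0.84, adjusted p = 0.930). The effectors had 4 of 7 above 0 and a median of 0.15, which was −0.06 with CPM as deposited.

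The synthetase group, which charges tRNAs with amino acids, had 2 of 13 above 0 with BTZ (NARS1 at 0.02 and XPOT at 0.14) and a median of −0.31, and none passed. By fitted difference, YARS1 had the lowest value, −1.03 (SE 0.48, limma adjusted p = 0.203), and AARS1 followed at −0.95 (SE 0.49, adjusted p = 0.251). The transporters had 2 of 7 above 0 and a median of −0.46. SLC6A9, a glycine transporter, had −1.89 (SE 0.75, adjusted p = 0.136) and SLC38A2, a carrier of small neutral amino acids, 0.44 (SE 0.23, adjusted p = 0.276). Over all 42 members 13 lay above 0 and the median was −0.34. With CPM as deposited, 7 of the 41 members that then passed the filter lay above 0 and the median of all genes was −0.36. In all 4 lines, 19 of the 42 were lower, against 22.0% of all genes, and 1 was higher, against 7.82%. For these counts the JEKO-1 mean of BTZ gave the third library the same weight as the averaged pair. Over the members, the third library had a median distance of −2.354 from the line's median. The pair's libraries had −0.155 and −0.187, above the untreated library at −0.491.

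How many members passed differed with the JEKO-1 replicates used. Without the third BTZ library of JEKO-1, 6 members passed: ATF3 rose by 3.10 (SE 0.91, limma adjusted p = 0.0276), and PYCR1 (−1.40), PCK2 (−1.49), GPT2 (−1.22), ALDH18A1 (−0.87) and ATF5 (−1.11, adjusted p = 0.0221) fell, beside 20.0% of all genes. Without the averaged pair of the other BTZ libraries, 15 members fell and none rose, beside 24.3% of all genes. These 15 took in the same 4 enzymes and also AARS1 (−1.33), SARS1 (−1.17), YARS1 (−1.45), MARS1 (−0.78) and CARS1 (−0.89). Leaving out the single library of MINO-P CON, MINO-P BTZ, JEKO-1 CON or Z138 BTZ, or the first of Z138 CON, left 0 members. Either Z138 library of CLF or S63845, either MINO-P library of S63845, the second of Z138 CON or the averaged IBR pair of JEKO-1 left 1 when taken out. Either JEKO-1 library of CLF, the third IBR library of JEKO-1, or either the pair or the third IBR library of MINO-VR left 2. Mitochondrial share moved with BTZ in JEKO-1 (1.907% untreated), and its part in these values was not tested. The B-cell genes CD79A (−1.82), CD79B (−1.80) and PAX5 (−2.52) fell with BTZ in the same fit, and all 8 lymphoma markers had values below 0. Of 7 markers of other cell types LYZ rose in the mean over the lines (0.68). Its value was 2.93 in MINO-VR, −0.08 in MINO-P and 0 in Z138. The limma F-test for unequal BTZ differences over the lines called LYZ (adjusted p = 0.0310). The part of either list in the members' values was not tested.

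**Figure D3:**
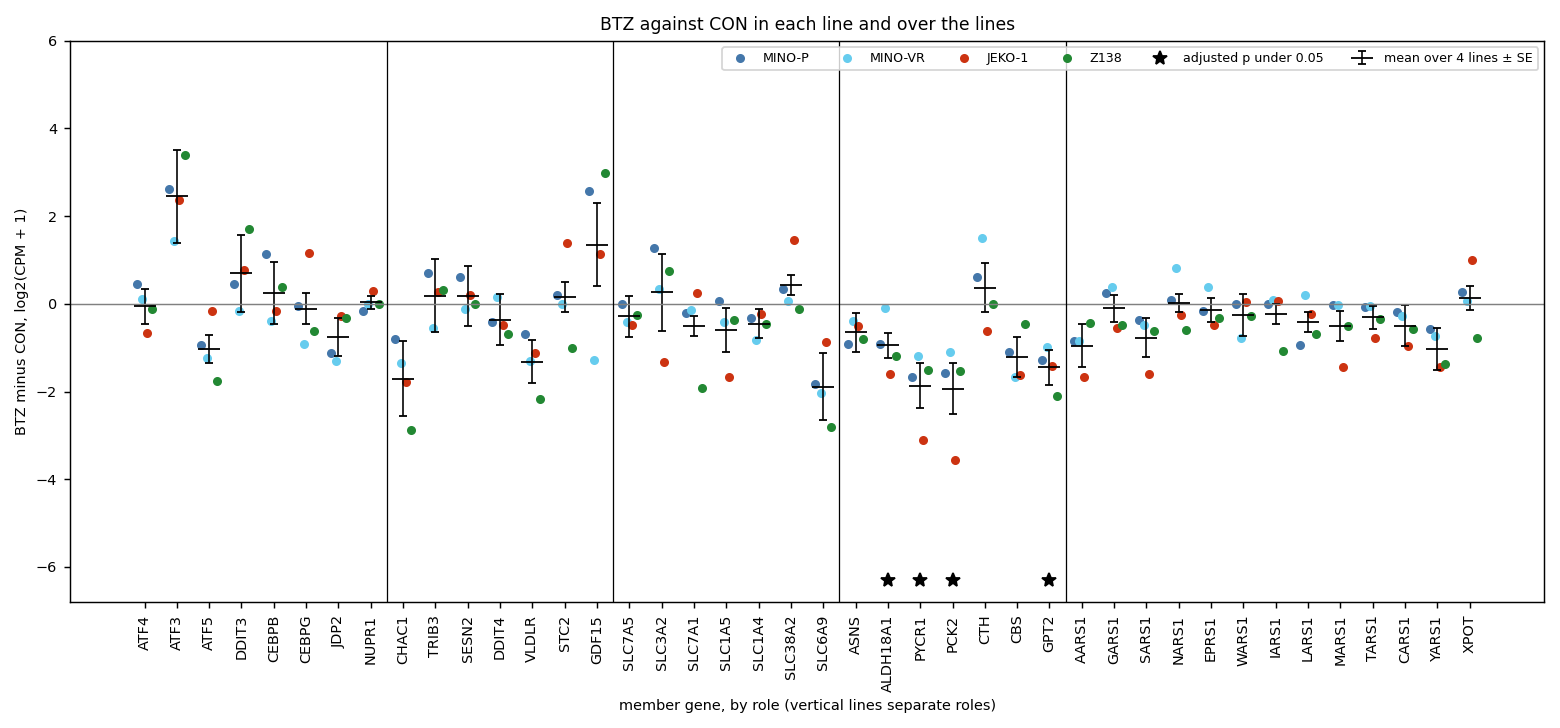
Difference of BTZ minus CON in log2(CPM + 1) for the 42 members, by role, with 1 coloured point per line, the mean over the lines with its SE in black, and a star where the limma adjusted p is under 0.05. For the starred genes PYCR1, PCK2, GPT2 and ALDH18A1 the points of all 4 lines lie below 0, and in Z138 6 of the 42 members lie above 0.

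Line by line, the BTZ difference rested on 1 to 3 libraries an arm. In MINO-P 15 of 42 members were above 0 (39.3% of all genes, member median −0.12), and no member passed, beside 0.12% of all genes called (20 genes, and 0 members at an unadjusted p under 0.05, limma). In MINO-VR 12 were above 0 (40.1% of all genes, median −0.33), and no member passed, beside 0.163% of all genes called and again 0 members at an unadjusted p under 0.05. In JEKO-1 13 were above 0 (40% of all genes, median −0.49), no member passed, and 6 had an unadjusted p under 0.05, beside 0.782% of all genes called. Without the averaged first and second BTZ libraries, the JEKO-1 arm was the third library alone, which was low over the members (median −2.35). PYCR1 then differed by −4.98, PCK2 by −5.34 and SLC38A2 by 1.70. The share of all genes called in that fit is not given here, so its calls are not read as a result about the members.

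In Z138 6 of 42 members were above 0 with BTZ (30.9% of all genes, median −0.50) and 1 passed, beside 1.79% of all genes called, a share near that of the members. This was SLC7A1 (chr13:29509414-29595689), a transporter of arginine and lysine, which was at 513 and 395 CPM untreated and at 118 CPM with BTZ. It fell by 1.92 on the log2 scale (SE 0.43, limma adjusted p = 0.0346), with the BTZ library below both untreated ones. BTZ is a single library in Z138, so this test takes its spread from the other groups. The call was lost without either Z138 library of CON, CLF or S63845. More members passed without either the pair or the third of the JEKO-1 BTZ libraries. The share of all genes called in those fits is not given here. In the other lines, SLC7A1 was at 468 and 403 CPM in MINO-P, 499 and 455 CPM in MINO-VR, and 236 CPM against 239, 241 and 328 CPM in JEKO-1. The test for unequal BTZ differences over the 4 lines called no member (1 at an unadjusted p under 0.05), beside 0.0481% of all genes called.

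Other genes of the pathway, from lists drawn up beside the members, were read in the same BTZ comparison. Of 19 other ATF4 targets tested, 2 fell, SLC43A1, a carrier of branched amino acids (−2.07, limma adjusted p = 0.00646), and PHGDH, which opens serine synthesis (−1.79, adjusted p = 0.0190), 0 rose, and the median was −0.49. The cystine carrier SLC7A11 had 1.84 (adjusted p = 0.0861). Of 11 other cytosolic synthetases and scaffold subunits, VARS1 fell (−1.66, adjusted p = 0.0399), with a median of −0.42. Of 17 mitochondrial synthetases, 5 fell, with VARS2 (−2.08, adjusted p = 0.0379) and MARS2 (−1.34, adjusted p = 0.0342) the lowest, and the median was −0.65. Of 15 genes for eIF2 kinases, eIF2B and eIF2 phosphatase subunits none passed, with a median of −0.25.

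IBR was compared with CON in JEKO-1 and Z138, where both come from the same series of library names. No member passed, beside 0.0602% of all genes called (10 genes, and 6 members at an unadjusted p under 0.05, limma). Values above 0 were found for 37 of 42 members, with a median of 0.73 where the median of all genes was 0.01. By role, values above 0 were found for 7 of 8 factors (median 0.70), 7 of 7 effectors (1.00), 7 of 7 transporters (0.91), 5 of 7 enzymes (0.57) and 11 of 13 of the synthetase group (0.34). The other cytosolic synthetases had 1 of 11 above 0 and a median of −0.55, and the mitochondrial ones 3 of 17 and −0.53.

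GDF15 had the largest fitted value with IBR. It was at 0.0541 CPM in the untreated JEKO-1 library, about the worth of 1 read, and at 63.8, 63.0 and 35.4 CPM with IBR, and in Z138 at 5.91 and 0.186 CPM untreated and 85.0 and 25.4 CPM with IBR. All IBR libraries were above all untreated ones of their line. The GDF15 difference was 4.79 (SE 1.14, limma adjusted p = 0.106) and did not pass. Leaving out 1 sample or line gave 0 to 1 called members in this comparison, and the shares of all genes called in those fits are not given here. TRIB3 was at 78.8 CPM untreated and 1351, 1486 and 1190 CPM with IBR in JEKO-1, and at 618 and 174 CPM against 676 and 463 CPM in Z138 (2.40, SE 1.00, adjusted p = 0.312). The TRIB3 groups were far apart in JEKO-1 and overlapped in Z138.

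ATF4 was at 387 CPM untreated and 1179, 1304 and 709 CPM with IBR in JEKO-1, and at 889 and 714 CPM against 1046 and 950 CPM in Z138 (0.80, SE 0.48, limma adjusted p = 0.520). DDIT3 was at 30.9 CPM and then 267, 289 and 41.2 CPM in JEKO-1, and at 63.0 and 44.1 CPM against 159 and 185 CPM in Z138 (1.72, SE 1.04, adjusted p = 0.527). For ATF4 and DDIT3, IBR libraries were above the untreated ones in both lines, and the third JEKO-1 library was the lowest of its group. CHAC1 was at 16.2 CPM and then 82.0, 85.9 and 32.1 CPM in JEKO-1, and at 28.8 and 41.5 CPM against 25.2 and 54.7 CPM in Z138 (0.86, adjusted p = 0.808). ASNS was at 77.7 CPM and then 181, 193 and 174 CPM in JEKO-1, and at 321 and 139 CPM against 309 and 237 CPM in Z138 (0.78, adjusted p = 0.584). CHAC1 and ASNS overlapped between IBR and CON in Z138 alone.

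ALDH18A1, in contrast, was at 194 CPM untreated and 95.9, 96.1 and 145 CPM with IBR in JEKO-1, and at 140 and 138.5 CPM against 53.8 and 58.3 CPM in Z138, below untreated in every IBR library of both lines. Its difference was −1.01 (SE 0.33, limma adjusted p = 0.196), the lowest of the 42.

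The IBR difference was larger in JEKO-1 than in Z138 for most members, but none passed the test of that difference. In JEKO-1 40 of 42 members were above 0 with a median of 1.31 (46.8% of all genes above 0), and in Z138 27 of 42 with a median of 0.13 (50.6% of all genes). In both lines 27 of the 42 were higher, where 29.7% of all genes were. The difference between the lines was above 0 for 39 of 42 members, with a median of 0.94, and no member passed, beside 0.012% of all genes called (2 genes, limma, and 4 members at an unadjusted p under 0.05). STC2 had the smallest adjusted p, 3.36 (SE 0.82, adjusted p = 0.727), and was near its detection limit in Z138. Of the genes always followed, ATF4 had 0.95, DDIT3 0.08, CHAC1 1.52, TRIB3 3.26 and ASNS 0.85, each with an adjusted p of 1. JEKO-1 has a single untreated library, and its mitochondrial share was 1.907% there and 13.483% to 20.885% with IBR, while Z138 had 3.43% to 8.616% over both groups, and the part of this in the difference was not tested.

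**Figure D4:**
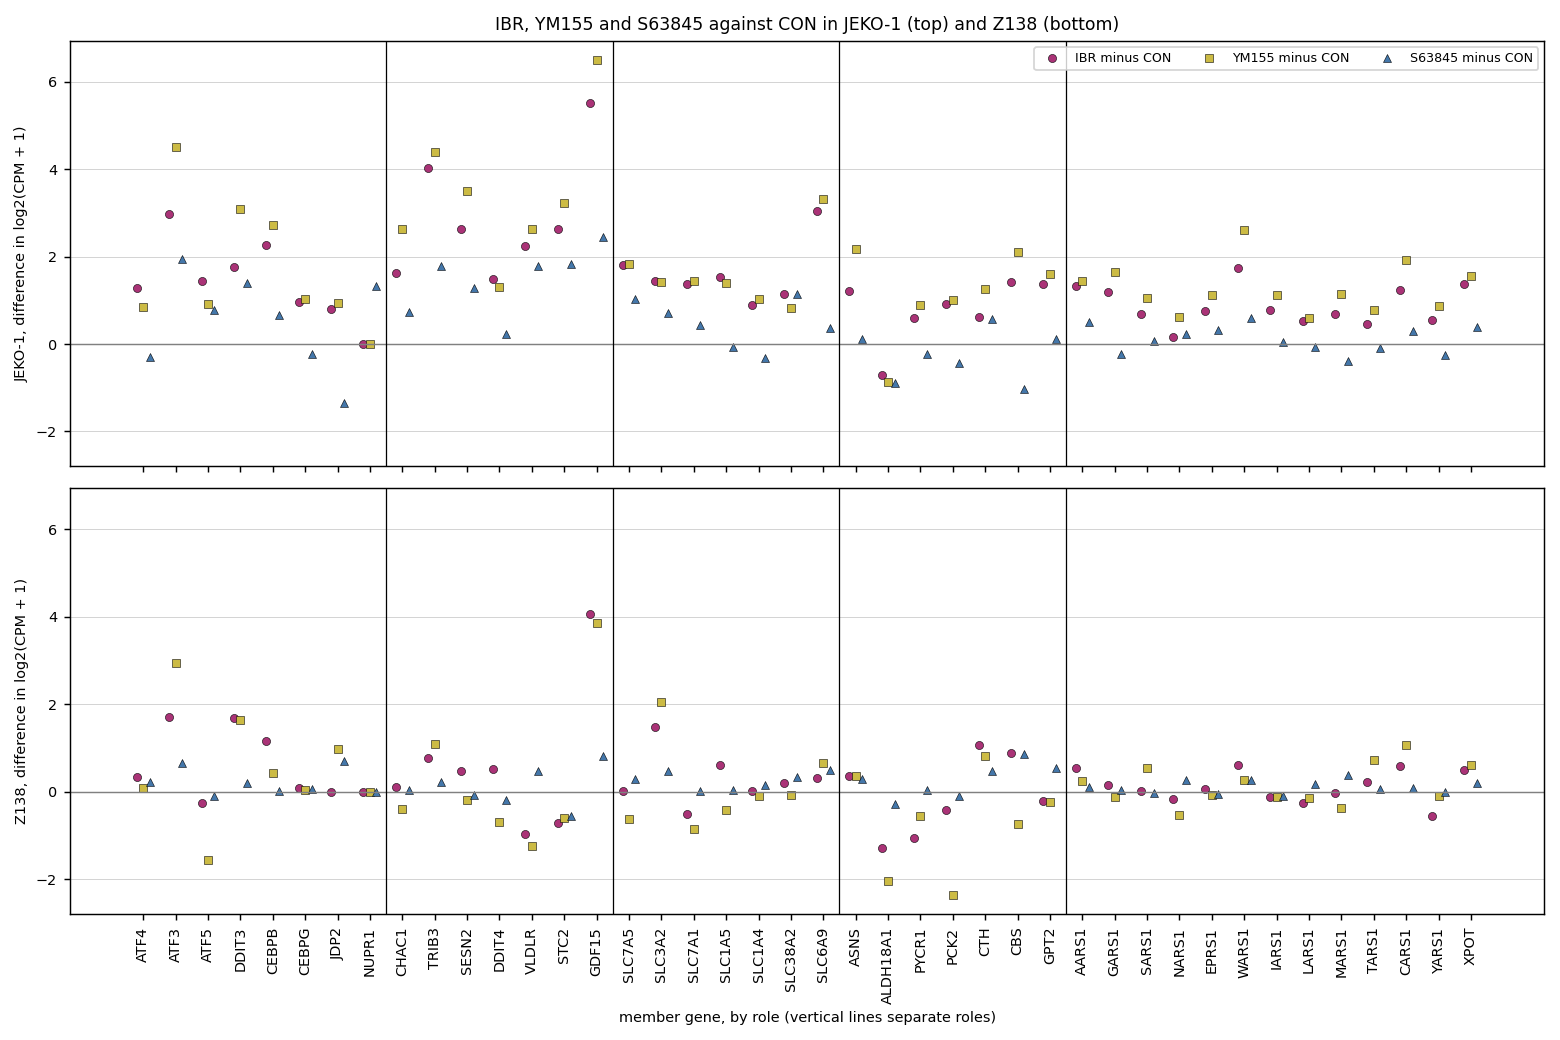
Difference from CON in log2(CPM + 1) of the 42 members by role, for IBR (circles), YM155 (squares) and S63845 (triangles), in JEKO-1 (top) and Z138 (bottom). The medians over the 42 members are 1.31, 1.40 and 0.30 in JEKO-1 and 0.13, −0.09 and 0.12 in Z138.

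YM155 was read in 1 library of each line. In JEKO-1 40 of 42 members were above CON, with a median of 1.40 (48.4% of all genes above 0), and in Z138 18 of 42, with a median of −0.09 (41.0% of all genes). Over both lines no member passed, beside 0 of all genes called (0 percent, limma, with 1844 genes and 7 members at an unadjusted p under 0.05). TRIB3 with YM155 was at 1666 CPM in JEKO-1 and 699 CPM in Z138, CHAC1 at 106 and 26.2 CPM, DDIT3 at 271 and 167 CPM, ASNS at 353 and 273 CPM, ATF4 at 696 and 850 CPM and GDF15 at 93.8 and 40.8 CPM. Set beside the untreated values above, all 6 genes were higher in JEKO-1, while in Z138 TRIB3, DDIT3 and GDF15 were above both untreated libraries and CHAC1 was below both. Fitted over both lines, the values were 0.47 for ATF4 (limma adjusted p = 0.879), 2.37 for DDIT3 (0.520), 1.12 for CHAC1 (0.844), 2.74 for TRIB3 (0.403) and 1.27 for ASNS (0.483). All 13 of the synthetase group were above 0 with a median of 0.75, and 3 of 11 other cytosolic synthetases were, with a median of −0.55.

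S63845 was compared with CON in the same way. In JEKO-1 (1 library) 28 of 42 members were above 0 with a median of 0.30, and in Z138 (2 libraries) 31 of 42 with a median of 0.12, where 42.1% and 55.2% of all genes were above 0. TRIB3 was at 272 CPM in JEKO-1, against 78.8 CPM untreated, and at 354 and 413 CPM in Z138, between the untreated libraries at 618 and 174 CPM. Beside 0.012% of all genes called (2 genes, limma), no member passed (2 members at an unadjusted p under 0.05). The fitted values were −0.05 for ATF4, 0.80 for DDIT3, 0.39 for CHAC1, 1.00 for TRIB3 and 0.19 for ASNS, each with an adjusted p of 1. The median of the synthetase group, 0.05, was −0.09 with CPM as deposited. IBR, YM155 and S63845 share the same untreated libraries in these comparisons.

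Set against S63845 directly, in all 4 lines, IBR had 15 of 42 members above 0 in MINO-P, 24 in MINO-VR, 39 in JEKO-1 and 23 in Z138, with line medians of −0.16, 0.31, 0.94 and 0.03. In the same order, 34.7%, 52%, 49.3% and 44.7% of all genes lay above 0. No member passed over the lines, beside 4.37% of all genes called (726 genes, limma), and 6 members had an unadjusted p under 0.05. GDF15 (2.76, SE 0.81, adjusted p = 0.0632) and ALDH18A1 (−0.83, SE 0.23, adjusted p = 0.0581) were nearest to passing. Some members passed without the pair or the third of the JEKO-1 BTZ libraries, the third MINO-P IBR library or the JEKO-1 S63845 library. The share of all genes called in those fits is not given here, so this is not read as a result about the members. ATF4 had 0.92 (adjusted p = 0.131), DDIT3 1.31 (0.341), CHAC1 0.29 (0.867), TRIB3 1.33 (0.308) and ASNS −0.05 (0.958). In the other lists CREBRF (1.40, adjusted p = 0.00916) and KLHL24 (1.02, adjusted p = 0.0177), counted there among ATF4 targets, rose, and the synthetase genes VARS1 (−1.92), FARSB (−0.94), MARS2 (−1.16) and NARS2 (−0.85) fell.

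VARS1, which charges the valine tRNA and is no member, is set here beside the member AARS1, a pair chosen after their values were seen. VARS1 was at 341 CPM untreated and 90.8, 72.8 and 119 CPM with IBR in JEKO-1, and at 312 and 284 CPM against 44.3 and 78.9 CPM in Z138. In the same libraries AARS1, which charges the alanine tRNA, was at 475 CPM untreated and 1193, 1237 and 1182 CPM with IBR in JEKO-1, and at 728 and 347 CPM against 559 and 940 CPM in Z138. VARS1 was below the untreated libraries in every IBR library of both lines, while AARS1 was above in JEKO-1 and overlapped in Z138. Whether members and other synthetases differ was not tested.

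YM155 against S63845 had 18, 11, 40 and 16 of 42 members above 0 in the order MINO-P, MINO-VR, JEKO-1, Z138. Of all genes, 52.9%, 58.8%, 51.7% and 36.5% lay above 0 in that order. No member passed, beside 0 of all genes called (limma, with 1429 genes and 4 members at an unadjusted p under 0.05). The values were 0.09 for ATF4, 1.30 for DDIT3, −0.26 for CHAC1, 0.93 for TRIB3 and 0.41 for ASNS, with adjusted p-values from 0.721 to 0.980. In MINO-VR, the YM155 library was the lowest of its line for TRIB3 save one, at 167 CPM against 154 CPM with S63845, and the lowest for CHAC1, at 3.005 CPM against 17.3 CPM.

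CLF was compared with CON in all 4 lines. Members above 0 numbered 16 of 42 in MINO-P, 25 in MINO-VR, 39 in JEKO-1 and 36 in Z138, and 11 were higher in all 4 lines, where 8.64% of all genes were. By line, 46.1%, 39.6%, 45.6% and 54.8% of all genes lay above 0 in the same order. In Z138 the members' median distance from their line median was 0.189 and 0.135 with CLF. These lay between the untreated libraries, at 0.243 and −0.422. No member passed, beside 0 of all genes called (limma, with 68 genes and 0 members at an unadjusted p under 0.05). The size of the values was small, with a median of 0.22 over the 42 members. ATF4 had 0.25, DDIT3 0.37, CHAC1 0.38, TRIB3 0.60 and ASNS 0.34, each with an adjusted p of 1. The JEKO-1 value joined unlike libraries: TRIB3 was at 99.6 CPM in one and 715 CPM in the other, WARS1, which charges the tryptophan tRNA, at 278 and 1326 CPM, and SESN2, a leucine sensor, at 43.6 and 169 CPM, with the lower library near CON (78.8, 301 and 38.0 CPM).

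CLF added to IBR gave higher values in MINO-P (35 of 42, median 0.51) and MINO-VR (39 of 42, median 0.81) than in JEKO-1 (26 of 42, median 0.12) and Z138 (24 of 42, median 0.08), a difference that was not tested. Of all genes, 44.3% were above 0 in MINO-P, 42.1% in MINO-VR, 44.4% in JEKO-1 and 64.9% in Z138. The median of all genes in Z138 was 0.14, above that of the members. In MINO-P and MINO-VR the mean of IBR holds the third library, which was low. No member passed over the 4 lines, beside 0.0903% of all genes called (15 genes, limma, and 2 members at an unadjusted p under 0.05). CHAC1 was at 57.8, 69.3 and 8.67 CPM with IBR and 88.0 and 85.2 CPM with IBR_CLF in MINO-P, and at 58.7, 70.0 and 6.45 CPM against 96.7 and 93.9 CPM in MINO-VR. In JEKO-1, CHAC1 was at 82.0, 85.9 and 32.1 CPM against 152 and 159 CPM, and in Z138 at 25.2 and 54.7 CPM against 27.4 and 63.1 CPM. The CHAC1 libraries were apart in 3 lines and overlapped in Z138 (1.42, SE 0.75, limma adjusted p = 0.924). In those 3 lines the IBR_CLF libraries are an averaged pair, counted as 1 sample, and so are the first and second IBR libraries. The share of all genes apart in this way is not given here. The other values were 0.33 for ATF4, 1.10 for DDIT3, 0.54 for TRIB3 and 1.04 for ASNS, with adjusted p-values from 0.867 to 0.998. Of the 42, 9 were higher in every line, where 8.49% of all genes were, and the median of the synthetase group, 0.21, was −0.01 with CPM as deposited.

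CLF added to BTZ, read in 3 lines, had 25 of 42 members above 0 in MINO-P, 16 in MINO-VR and 35 in JEKO-1. Of all genes, 40%, 45.7% and 50.4% lay above 0 in that order. Beside 0.0181% of all genes called (3 genes, limma), no member passed (0 members at an unadjusted p under 0.05). ATF4 had 0.45, DDIT3 1.06, CHAC1 0.85, TRIB3 0.95 and ASNS −0.42, each with an adjusted p of 1. The JEKO-1 value rests on unlike BTZ libraries: TRIB3 was at 456 and 483 CPM with BTZ_CLF and at 496, 461 and 18.2 CPM with BTZ. Without the first and second BTZ libraries some members rose, in a fit whose share of all genes called is not given here.

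BTZ added to YM155 had 14 of 42 members above 0 in MINO-P and 29 in MINO-VR, with medians of −0.60 and 0.47, and 1 library in every group. Of all genes, 38.5% lay above 0 in MINO-P and 31.6% in MINO-VR. Beside 0.247% of all genes called (41 genes, limma), no member passed (2 members at an unadjusted p under 0.05). ATF4 had 0.76, DDIT3 1.38, CHAC1 −0.09, TRIB3 0.73 and ASNS −0.45, with adjusted p-values from 0.667 to 1. SLC3A2, the heavy chain of several amino acid exchangers, was at 435 CPM with YM155 and 2112 CPM with BTZ_YM155 in MINO-P, and at 481 and 1256 CPM in MINO-VR (1.83, SE 1.33, adjusted p = 0.626). SLC3A2 is named after its values were seen.

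YM155 added to IBR had 38 of 42 members above 0 in MINO-P (66.9% of all genes) and 16 in Z138 (38.9%). No member passed, beside 0 of all genes called (limma, with 618 genes and 0 members at an unadjusted p under 0.05). ATF4 had 0.25, DDIT3 0.38, CHAC1 −0.07, TRIB3 0.64 and ASNS 1.11, each with an adjusted p of 1. The single library of MINO-P with IBR_S63845 had TRIB3 at 899 CPM, and that of MINO-VR with BTZ_S63845 had TRIB3 at 415 CPM, and neither entered a test of its own.

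MINO-VR was compared with MINO-P over the 9 treatments both had. One member rose, NARS1 (chr18:57600656-57622214), which charges the asparagine tRNA, by 0.56 on the log2 scale (SE 0.14, limma adjusted p = 0.0420), beside 2.99% of all genes called and with 2 members at an unadjusted p under 0.05. NARS1 lay between 452 and 812 CPM in MINO-VR (median 683 CPM) and between 282 and 660 CPM in MINO-P (median 406 CPM), so the lines overlapped. Treatment by treatment, NARS1 was at 812 against 507 CPM with BTZ, 685, 706 and 714 against 393, 364 and 322 CPM with IBR, and 683 and 689 against 313 and 282 CPM with IBR_CLF, but at 457 against 475 CPM untreated. NARS1 was higher in MINO-VR in each of the other 8 shared treatments, while the untreated libraries were close. The share of all genes with such a run is not given here, and NARS1 was picked by its call, so this is a description. The call held in 32 of 61 alternative fits. It was lost without any 1 of the samples of BTZ, BTZ_CLF, BTZ_YM155, IBR or IBR_CLF of these lines, the MINO-VR library or the second MINO-P library of S63845, any Z138 library of CON, CLF, S63845 or IBR_CLF, either JEKO-1 library of CLF, or the third JEKO-1 IBR library, and without either BTZ sample of JEKO-1 a further member passed. IARS1, which charges the isoleucine tRNA, had 0.49 (adjusted p = 0.123).

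Over the 42 members 22 were above 0 in MINO-VR against MINO-P, with a median of 0.00. ATF4 had −0.30 (limma adjusted p = 0.787), DDIT3 0.15 (1), CHAC1 −0.58 (0.820), TRIB3 0.07 (1) and ASNS −0.54 (0.488). Of the other ATF4 targets PSAT1, the second enzyme of serine synthesis, fell by 6.21 and KLHL24 by 0.99. PSAT1 was at most at 0.287 CPM in MINO-VR and at 23.3 to 154 CPM in MINO-P. Of the 8 lymphoma markers 1 passed in the same fit, CD79A, which fell by 0.94 (limma adjusted p = 0.00386), and of 7 markers of other cell types 1 passed, the myeloid gene LYZ, which rose by 1.28 (adjusted p = 1.04e-05) and was at most at 12.5 CPM in MINO-VR and 1.76 CPM in MINO-P. The part of these in the NARS1 difference was not tested.

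JEKO-1 was then compared with Z138. Over their 7 shared treatments 15 of the 42 passed, 8 higher and 7 lower in JEKO-1, beside 44.8% of all genes called (17 members at an unadjusted p under 0.05), so the members' share was below that of all genes. Higher in JEKO-1 were the factor JDP2, NUPR1, the effector STC2, the glutamine carrier SLC1A5, the enzyme ALDH18A1 and the synthetases MARS1, IARS1 and NARS1. NUPR1 is in this count although it passed the filter only through libraries outside Z138. Lower were ATF4, ATF5 and CEBPG, the effector VLDLR, the enzymes ASNS and CTH, and the synthetase EPRS1.

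STC2 (chr5:173314723-173328448) lay between 19.7 and 194 CPM in JEKO-1 (median 72.4 CPM) and between 0 and 1.43 CPM in Z138 (median 0.472 CPM), a rise of 5.76 on the log2(CPM + 1) scale (SE 0.23, limma adjusted p = 3.11e-11), which understates low values. VLDLR (chr9:2621182-2660057), a lipoprotein receptor, lay between 0 and 35.8 CPM in JEKO-1 (median 13.9 CPM) and between 29.6 and 230 CPM in Z138 (median 136 CPM), and fell by 2.95 (SE 0.34, adjusted p = 4.34e-06). STC2 did not overlap between the lines, and VLDLR overlapped through the BTZ library (29.6 CPM) and the first IBR library (34.7 CPM) of Z138. NUPR1 was listed at 0 in every Z138 library and at most at 1.505 CPM in JEKO-1, so its call rests on values near the limit of detection. Since the filter kept NUPR1 only through libraries outside Z138, its call is not read as a difference between the lines.

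Among the transcription factors, ATF5 had a median of 476 CPM in JEKO-1 (245 to 1351 CPM) and 2471 CPM in Z138 (820 to 3279 CPM), and fell by 1.74 (SE 0.22, limma adjusted p = 1.3e-05). CEBPG, a C/EBP partner of ATF4, had medians of 124 and 167 CPM (−0.87, SE 0.24, adjusted p = 0.00850), and JDP2, a repressor of the AP-1 family, 13.1 and 5.48 CPM (1.43, SE 0.29, adjusted p = 0.00104). ATF4 had medians of 560 and 889 CPM and fell by 0.77 (SE 0.27, adjusted p = 0.0324). The ranges of all 4 factors overlapped between the lines.

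Of the enzymes, ASNS had a median of 104 CPM in JEKO-1 and 273 CPM in Z138 and fell by 0.79 (SE 0.30, limma adjusted p = 0.0420), and CTH, which makes cysteine, had 3.01 and 8.36 CPM and fell by 1.25 (SE 0.38, adjusted p = 0.0141). ALDH18A1 rose by 0.53 (adjusted p = 0.0328). Of the synthetases, MARS1 had medians of 570 and 328 CPM (1.00, SE 0.23, adjusted p = 0.00284), IARS1 of 576 and 407 CPM (0.81, SE 0.16, adjusted p = 0.000638) and NARS1 of 268 and 196 CPM (0.71, SE 0.14, adjusted p = 0.000736). EPRS1, which charges 2 tRNAs, had 292 and 466 CPM (−0.49, SE 0.19, adjusted p = 0.0459), and the carrier SLC1A5 441 and 282 CPM (1.00, SE 0.35, adjusted p = 0.0282). DDIT3, CHAC1 and TRIB3 did not pass between the lines: DDIT3 had 0.01 (adjusted p = 0.997), CHAC1 0.41 (0.593) and TRIB3 −0.12 (0.889).

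Of the lymphoma markers 4 of 8 passed in the same fit (3 higher), and of the markers of other cell types 4 of 7 (3 higher, with PECAM1 at 3.35 and COL1A1 at −2.35), and their part in the members' values was not tested. Of the 42 members 24 were above 0 in JEKO-1 against Z138, with a median of 0.15, but 13 of the members tested were above 0 with CPM as deposited, and the median of all genes was −0.22 in place of 0.02. The synthetase group had 11 of 13 above 0 with a median of 0.31, which was −0.04 with CPM as deposited. Other cytosolic synthetases had 7 of 11 called, all higher in JEKO-1, led by FARSA (1.07) and RARS1 (1.02). Of the eIF2 genes 8 of 15 passed, 5 higher, among them the amino acid-sensing kinase EIF2AK4 (1.33) and EIF2S3 (1.32), and 3 lower, among them the reticulum kinase EIF2AK3 (−1.12) and PPP1R15B (−0.80). Other ATF4 targets had 3 higher, led by SLC43A1 (1.67) and PSAT1 (1.65), and 3 lower, of 19. Mitochondrial synthetases had 2 higher, NARS2 (0.93) and MARS2 (0.91), and 3 lower, led by FARS2 (−0.97) and RARS2 (−0.90), of 17.

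**Figure D5:**
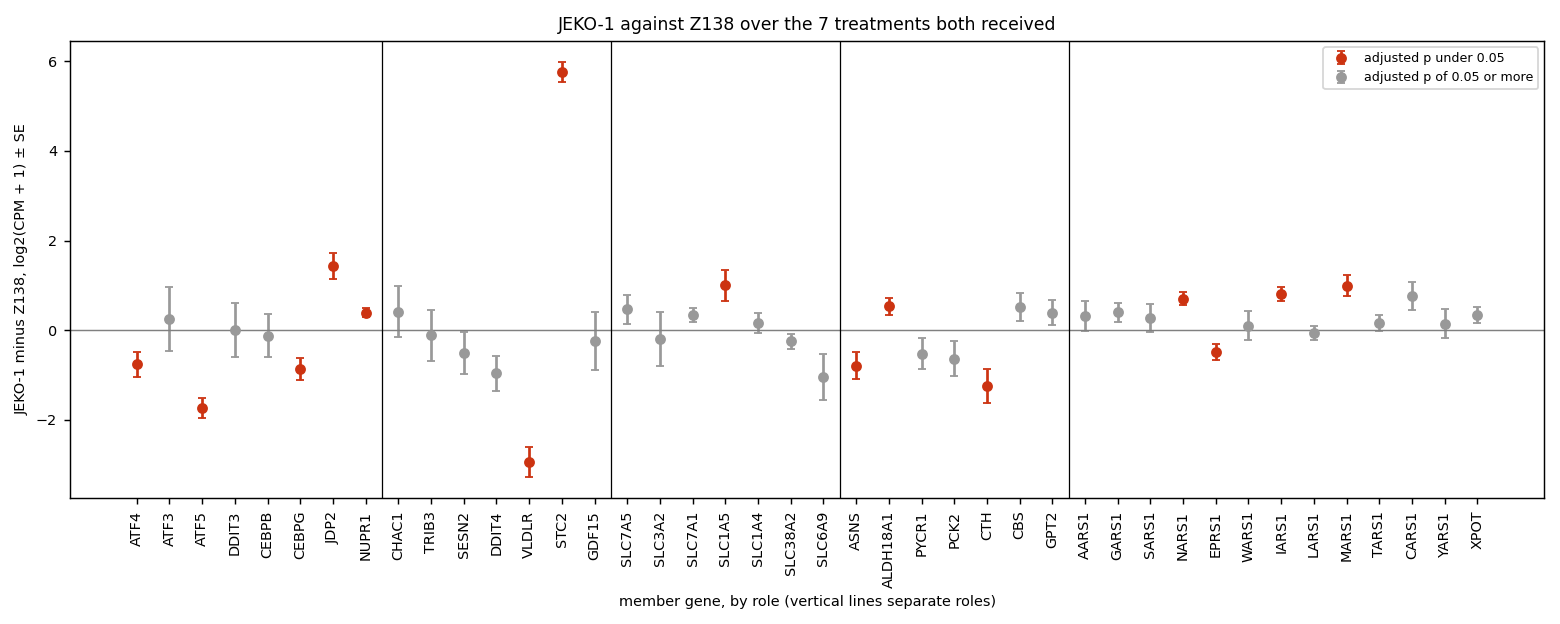
Difference of JEKO-1 minus Z138 in log2(CPM + 1) over 7 shared treatments for the 42 members, by role, with the SE as bars, in red where the limma adjusted p is under 0.05 and in grey otherwise. STC2 is highest at 5.76 and VLDLR lowest at −2.95, and 15 members are red.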

How the data were processed

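Poly-A RNA-seq of 56 libraries was deposited by the authors as 1 table of log2 values, read as log2 of CPM plus 1 because each library sums to the same CPM total once the log2 is undone. The submitters' processing notes name the build hg38 and the tool Partek, and the aligner, the counter, the annotation and the use of strand were not given in the sources used here. The members and lists were chosen with earlier results of these data known. CPM was recomputed without the 15 mitochondrially encoded genes, which lifts every other gene of a library rich in them. Between 79.16% and 91.9% of low values came out as whole reads (within 0.1 reads), so no count model was fitted, and floors cover counting error only. An entry with no gene name (at most 0.00077% of a library) was left out. Groups follow the labels for line and treatment. Replicate numbers only name libraries.

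limma 3.58.1 (R 4.3.3), tested on simulated data, was fitted with an intensity trend to log2(CPM + 1) of 48 samples in 37 groups (11 residual degrees of freedom), over 16615 genes with at least 1 CPM in 2 samples. Comparisons average the differences within lines with equal weight, and a member is called at a Benjamini-Hochberg adjusted p under 0.05 over all genes. No test set libraries named HK (8) and MCL (48) against each other within a line. IBR, YM155 and S63845 were therefore compared with CON only in JEKO-1 and Z138. Line medians, ranges and ranks of MINO-P and MINO-VR join both names. Text names ATF4, DDIT3, CHAC1, TRIB3 and ASNS in each comparison, up to 3 called rises and 3 falls per role, and up to 2 of each in other lists. VARS1, SLC3A2, ATF3, ATF5, GDF15, WARS1, SESN2 and other genes named without passing were picked after their values were seen. Promoter cores were searched on both strands in RefSeq promoters of GRCh38.p14. Alternatives were 8 settings, 48 fits without 1 sample, 4 without 1 line, and 3 chosen after seeing the data.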

Additional observations from a re-analysis of the deposited data

How the results depend on the processing

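The number of members called was recounted in every comparison under 8 other settings, without each of 48 samples and each of 4 lines, and under 3 settings chosen after seeing the data. The BTZ call of 4 members became 10 with CPM as deposited and with an additive model, 2 with size factors, 1 without a filter, 1 without IBR replicates 1 and 2, 1 without IBR replicate 3, and 15 without JEKO-1 libraries rich in mitochondrial reads. In JEKO-1 alone the BTZ count of 0 became 10 as deposited, 2 with each library as its own sample and 16 without the mitochondria-rich libraries. In Z138 the count of 1 became 0 as deposited, with size factors and in both IBR settings, 2 with each library on its own, 5 with array weights and 3 without the mitochondria-rich libraries. For IBR against CON, 0 became 3 with each library on its own, 2 in the additive model and 1 without the mitochondria-rich libraries. For YM155 against CON, 0 became 2 with each library on its own and 2 with array weights. For S63845 against CON, 0 became 1 without a filter and 1 with array weights. For IBR against S63845, 0 became 5 with each library on its own, 2 in the additive model, 3 with array weights, 3 without IBR replicate 3 and 3 without the mitochondria-rich libraries. For MINO-VR against MINO-P, 1 became 0 as deposited and in both IBR settings, and 2 with each library on its own, with array weights and without the mitochondria-rich libraries. The F-test count of 0 became 5 without the mitochondria-rich libraries. The cause was not tested in any of these. Shares of all genes called are not given here for these counts or for those that follow. None of the counts is therefore read as a result about the members. Leaving out 1 sample or line gave 0 to 15 members for BTZ, 0 to 16 in JEKO-1, 0 to 4 in Z138, 0 to 1 for IBR against CON, 0 to 5 for IBR against S63845, 0 to 2 for MINO-VR against MINO-P, 0 to 4 for BTZ_CLF against BTZ, 0 to 5 for the F-test and 11 to 21 for JEKO-1 against Z138. For BTZ, leaving out MINO-P or Z138 also gave 0. No called value changed direction. The labels give no replicate numbers, and a replicate block on the name suffix A left 3 BTZ calls. Most groups hold 1 library, so the spread comes from few repeats and single libraries are assumed to vary like the rest, and members below about 0.5 CPM cannot be told from 0.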
